A study of Mus musculus with 24 samples.

Results

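The genes for the proteins of the mitochondrial ribosome were examined in mouse liver after gastric bypass, after calorie restriction and after sham surgery. The set holds the 77 genes, of 14995 in the count table, whose symbol starts with Mrpl or Mrps followed by a digit. Of these, 50 encode proteins of the large subunit and 26 proteins of the small subunit, and Mrps36 keeps a ribosomal symbol although its protein is assigned to the oxoglutarate dehydrogenase complex. Mrps18a and Mrps30 are counted with the large subunit, where their proteins sit.

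Liver RNA was counted in 24 libraries, 8 in each of 3 groups, from mice killed 20 weeks after surgery, and the title of the series calls the mice obese. The RYGB group had Roux-en-Y gastric bypass, an operation in which food bypasses much of the stomach and the first stretch of bowel. The WM group was weight-matched to RYGB through restricted calories, and the Sham group had sham surgery. No strain, sex, age or diet is given in the labels, nor whether each library comes from its own mouse, so p-values measure the spread between these libraries, which may be technical.

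The mitochondrial ribosome translates the few messages that mitochondrial DNA encodes, all of them for membrane subunits of the respiratory chain and ATP synthase. Its proteins are encoded in the nucleus, made on cytosolic ribosomes and imported, and they assemble on ribosomal RNAs transcribed from mitochondrial DNA. Some of them descend from proteins of the bacterial ribosome, and others occur only in mitochondria. In the liver, mitochondria carry out fatty acid oxidation, ketone synthesis and part of the urea cycle.

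Promoter sequence for 68 of the 77 genes was found in RefSeq windows on GRCm38.p6, which run from 250 bases before to 50 after a transcript's start. 3 short motifs of factors known from mitochondrial gene promoters were searched on both strands, and none of them contains another. The core bound by ETS factors such as GABP, CCGGAAG, was present in 25 of 74 windows of these genes (33.8%), against 16.9% of the windows of all genes tested and 8.86% of all RefSeq windows. The NRF1 half-site TGCGCA was present in 29.7%, against 13.2% and 7.76%. The YY1 core AAGATGGCG was present in 10.8%, against 2.97% and 1.40%. 4 windows are printed because they show each motif in a named gene, and because Mrps18a, which did not pass in either comparison with Sham, holds 2 of them. Each line gives the 150 bases before the start, on the strand of the gene, with the motif in capitals.
Mrps22, ETS core from 11 bases before the start, chr9:98601680-98601829, minus strand: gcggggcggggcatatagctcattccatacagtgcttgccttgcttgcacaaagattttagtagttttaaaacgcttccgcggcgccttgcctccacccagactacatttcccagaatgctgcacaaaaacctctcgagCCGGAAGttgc
Mrps16, NRF1 half-site from 52 bases before the start, chr14:20393635-20393784, minus strand: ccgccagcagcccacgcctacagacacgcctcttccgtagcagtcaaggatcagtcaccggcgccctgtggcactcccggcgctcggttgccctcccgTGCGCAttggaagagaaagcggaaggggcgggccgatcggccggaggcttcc
Mrpl36, YY1 core on the opposite strand from 31 bases before the start, chr13:73330859-73331008, plus strand: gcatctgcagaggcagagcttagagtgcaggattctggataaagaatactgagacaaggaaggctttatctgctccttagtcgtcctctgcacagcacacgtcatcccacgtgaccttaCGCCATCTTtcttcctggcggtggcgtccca
Mrps18a, NRF1 half-site from 42 and ETS core from 26 bases before the start, chr17:46110854-46111003, plus strand: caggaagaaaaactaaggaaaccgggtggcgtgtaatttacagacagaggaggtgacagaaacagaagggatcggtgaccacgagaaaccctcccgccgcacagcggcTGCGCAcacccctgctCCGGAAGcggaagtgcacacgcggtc
A match is a description of letters and not a bound site.

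Levels are given in CPM, read counts as a share of the library after scaling of library sizes by TMM, which assumes that most genes do not change. The libraries prime at the 3′ end of messages, and levels are therefore used as counts without a length term and are not compared between genes, other than to choose 5 members to name. Differences were tested with edgeR's quasi-likelihood test over 13121 genes, and a gene passed when its Benjamini-Hochberg adjusted p over all of them was under 0.05. Of the 77 genes, 75 had enough counts to be tested. Mrpl23, with 137 counts in all 24 libraries together, and Mrps36, with 125, did not.

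Library totals were 14002193 to 19958019 counts in RYGB, 14208021 to 22766612 in WM and 13659647 to 17391377 in Sham. Pancreas transcripts were found in 3 libraries by the sum of 7 acinar genes, those with too few counts to be tested. The sum was 1970 CPM in RYGB 18, 1885 CPM in RYGB 19 and 804.5 CPM in Sham 17, against at most 18.31 CPM in each of the other 21 libraries. With the tested acinar gene Cela1 added, the medians were 58.1 CPM in RYGB, 115.5 CPM in WM and 11.3 CPM in Sham. That sum was 71.2 to 187.7 CPM in WM libraries. The hepatocyte marker Alb was abundant in every library, at 51790 CPM or more in RYGB, 34930 CPM or more in WM and 21510 CPM or more in Sham.

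Genes of the mitochondrial ribosome were higher after gastric bypass and after calorie restriction than after sham surgery. Summed over the 77 genes, the lowest, median and highest library had 3355, 3862 and 4521 CPM in RYGB, 3235, 4253 and 5197 CPM in WM, and 2270, 2593 and 2798 CPM in Sham. Every RYGB library and every WM library lay above the highest Sham library. The group means were 3889 ± 392 CPM in RYGB, 4260 ± 604 CPM in WM and 2582 ± 202 CPM in Sham (SD, n = 8 each). The ratio of means was 1.51 for RYGB over Sham and 1.65 for WM over Sham.

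**Figure D1:**
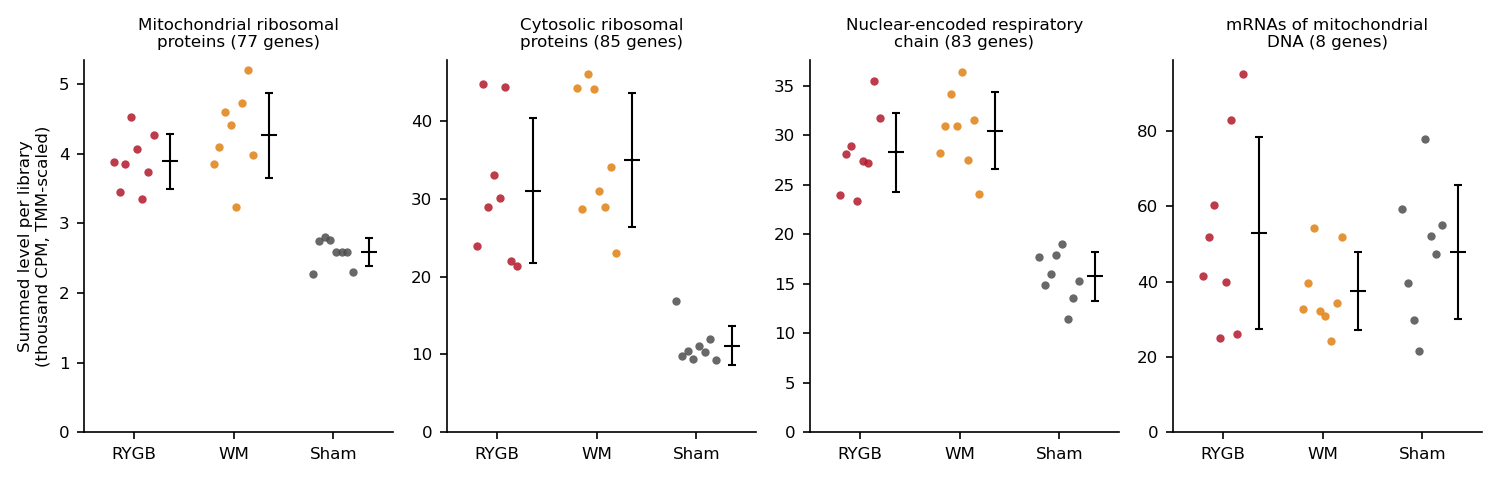
Summed level of 4 gene groups in each library, in CPM after TMM scaling, on a vertical axis marked in kilo-CPM, with the mean and SD beside the 8 points of each group. The RYGB and WM points of the mitochondrial ribosomal proteins lie above all Sham points, as they do for the cytosolic ribosomal proteins and the nuclear-encoded respiratory chain, while the groups overlap for the mRNAs of mitochondrial DNA.

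In RYGB against Sham, 40 of the 75 tested genes rose and 0 fell, or 53.3% higher, where 12.7% of all tested genes were higher and 11.0% lower. The median log2 fold change was 0.61, against -0.01 for all tested genes, and it ran from -0.55 to 1.33 with 68 of 75 above 0. The 8 RYGB libraries all lay above the 8 Sham libraries for 19 of the 75, a pattern found in 3.28% of all tested genes, and for 0 of the 75 they all lay below, against 2.1% of all tested genes. In WM against Sham, 48 rose and 0 fell, or 64.0% higher, where 16.5% of all tested genes were higher and 15.0% lower. The median was 0.66, against -0.01 for all tested genes, with a range of -0.27 to 1.46 and 67 of 75 above 0, and the WM libraries all lay above the Sham libraries for 14 of the 75, against 3.15% of all tested genes, and below them for 0 of the 75, against 2.68%. The 2 comparisons share the Sham libraries and are not independent of each other.

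These changes are relative to the scaling. With library totals alone, the median of all tested genes shifted to -0.36 in RYGB against Sham and to -0.33 in WM against Sham. Under that scaling 20 members were higher and 5 lower in RYGB, and 26 were higher and 4 lower in WM. Over all 13121 tested genes the same scaling gave 754 higher and 3534 lower in RYGB, and 1049 higher and 3637 lower in WM. The median of the members lay 0.62 above that of all genes in RYGB under either scaling, and in WM 0.68 above it with library totals and 0.66 with TMM. As a share of all counts with no scaling, the members made up 0.282% to 0.410% in RYGB libraries, 0.352% to 0.451% in WM libraries and 0.227% to 0.358% in Sham libraries, so that the groups overlapped. The gene Gm42418 took 3.081% to 20.35% of all counts in RYGB, 1.275% to 21.31% in WM and 3.041% to 26.51% in Sham. Its counts enter that share and the library totals. It took 26.51% in Sham 6 and 15.56% in RYGB 18, the libraries with the lowest member share of their groups. In WM the order was the reverse, since WM 9 had the lowest member share and also the lowest Gm42418 share, 1.275%. RYGB 11, with 20.35% for Gm42418, had a member share of 0.368%, above the RYGB median of 0.360%. With the Gm42418 share as a covariate, 40 members were higher in RYGB and 48 in WM, against 13.24% and 16.76% of all tested genes. Without the 3 libraries with pancreas transcripts, 36 members were higher in RYGB and 44 in WM, with 0 lower in both. Of 13119 genes in that setting, 1298 (9.894%) were higher and 1001 lower in RYGB. In WM 1951 (14.87%) were higher and 1677 lower.

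The dependence of level on transcript length differed between the groups, and its part in the result was not tested beyond the correction given here. The tested members had a median annotated transcript of 1316 bases, against 2871.5 for all tested genes. The slope of log2 level on log2 transcript length over all tested genes was -0.154 to 0.0195 in RYGB libraries, -0.210 to 0.0513 in WM libraries and 0.0933 to 0.246 in Sham libraries, so that RYGB and WM did not overlap with Sham. After removal of smooth trends on GC content and length in each library, 33 members were higher and 2 lower in RYGB, with a median log2 fold change of 0.39 against 0.06 for all genes. The same correction left 38 members higher and 3 lower in WM, with a median of 0.42 against 0.08. Over all 13121 tested genes it gave 1868 higher and 1120 lower in RYGB, and 2362 higher and 1449 lower in WM. Of the members called without the correction, 28 of 40 kept their call in RYGB and 33 of 48 in WM.

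**Figure D2:**
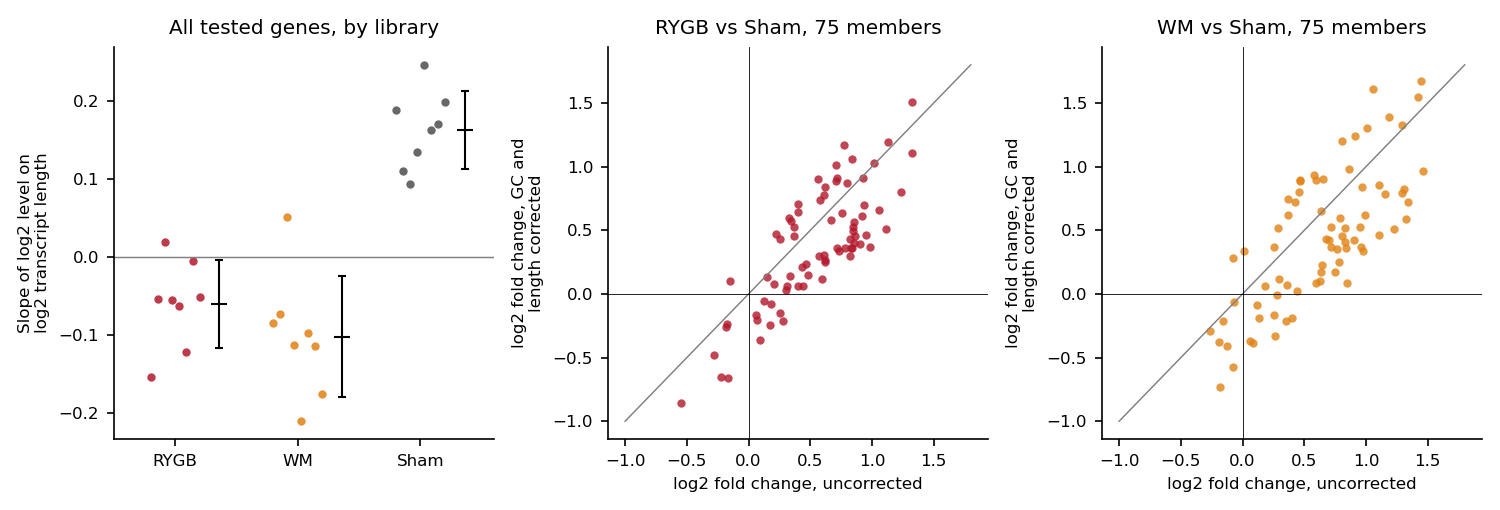
Left, the slope of log2 level on log2 transcript length over all tested genes in each library, with mean and SD. Middle and right, the log2 fold change of each of the 75 members in RYGB and in WM against Sham, without correction on the horizontal axis and after the GC and length correction on the vertical axis, with the line of equality. Most members stay above 0, and the member median is 0.39 in RYGB and 0.42 in WM after correction.

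Genes of both subunits rose. In the large subunit, 27 of 49 tested genes rose in RYGB and 32 of 49 in WM, with median log2 fold changes of 0.62 and 0.70 against Sham. In the small subunit, 13 of 26 rose in RYGB and 16 of 26 in WM, with medians of 0.58 and 0.64. Over all tested genes, 12.7% were higher in RYGB and 16.5% in WM. With library totals, RYGB had 17 large subunit genes higher and 2 lower, and 3 small subunit genes higher and 3 lower. WM had 19 and 2, and 7 and 2, in the same order. With the GC and length correction, the counts were 25 and 1, and 8 and 1, in RYGB. They were 26 and 2, and 12 and 1, in WM. The difference between the subunits was not tested. The summed level of the large subunit genes was 2544 to 3399 CPM in RYGB, 2384 to 3914 CPM in WM and 1657 to 2050 CPM in Sham. That of the small subunit genes was 791 to 1121 CPM in RYGB, 850 to 1282 CPM in WM and 609 to 755 CPM in Sham. Neither sum overlapped between RYGB or WM and Sham. The ratio of the 2 sums was 2.80 to 3.37 in RYGB, 2.76 to 3.36 in WM and 2.69 to 2.97 in Sham, and these ranges overlapped. Its mean was higher in RYGB, at 3.06 ± 0.18, and in WM, at 3.03 ± 0.21, than in Sham, at 2.80 ± 0.11 (SD, n = 8 each). This shift was not tested.

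Proteins with a bacterial counterpart and proteins found only in mitochondria were both among those that rose. Over all tested genes, 12.7% were higher in RYGB and 16.5% in WM. In the large subunit, 17 of 29 with a counterpart rose in RYGB and 20 of 29 in WM, and 10 of 20 mitochondrial ones rose in RYGB and 12 of 20 in WM. In the small subunit, 8 of 16 with a counterpart rose in RYGB and 10 of 16 in WM, and 5 of 10 mitochondrial ones rose in RYGB and 6 of 10 in WM. Medians over the 4 classes ran from 0.51 to 0.72 in RYGB and from 0.53 to 0.75 in WM. In the order of classes above, library totals gave 11, 6, 1 and 2 genes higher and 1, 1, 1 and 2 lower in RYGB. In WM they gave 12, 7, 4 and 3 higher and 1, 1, 0 and 2 lower. The GC and length correction gave 17, 8, 4 and 4 higher and 0, 1, 0 and 1 lower in RYGB. In WM it gave 15, 11, 7 and 5 higher and 0, 2, 1 and 0 lower. The difference between the classes was not tested.

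**Figure D3:**
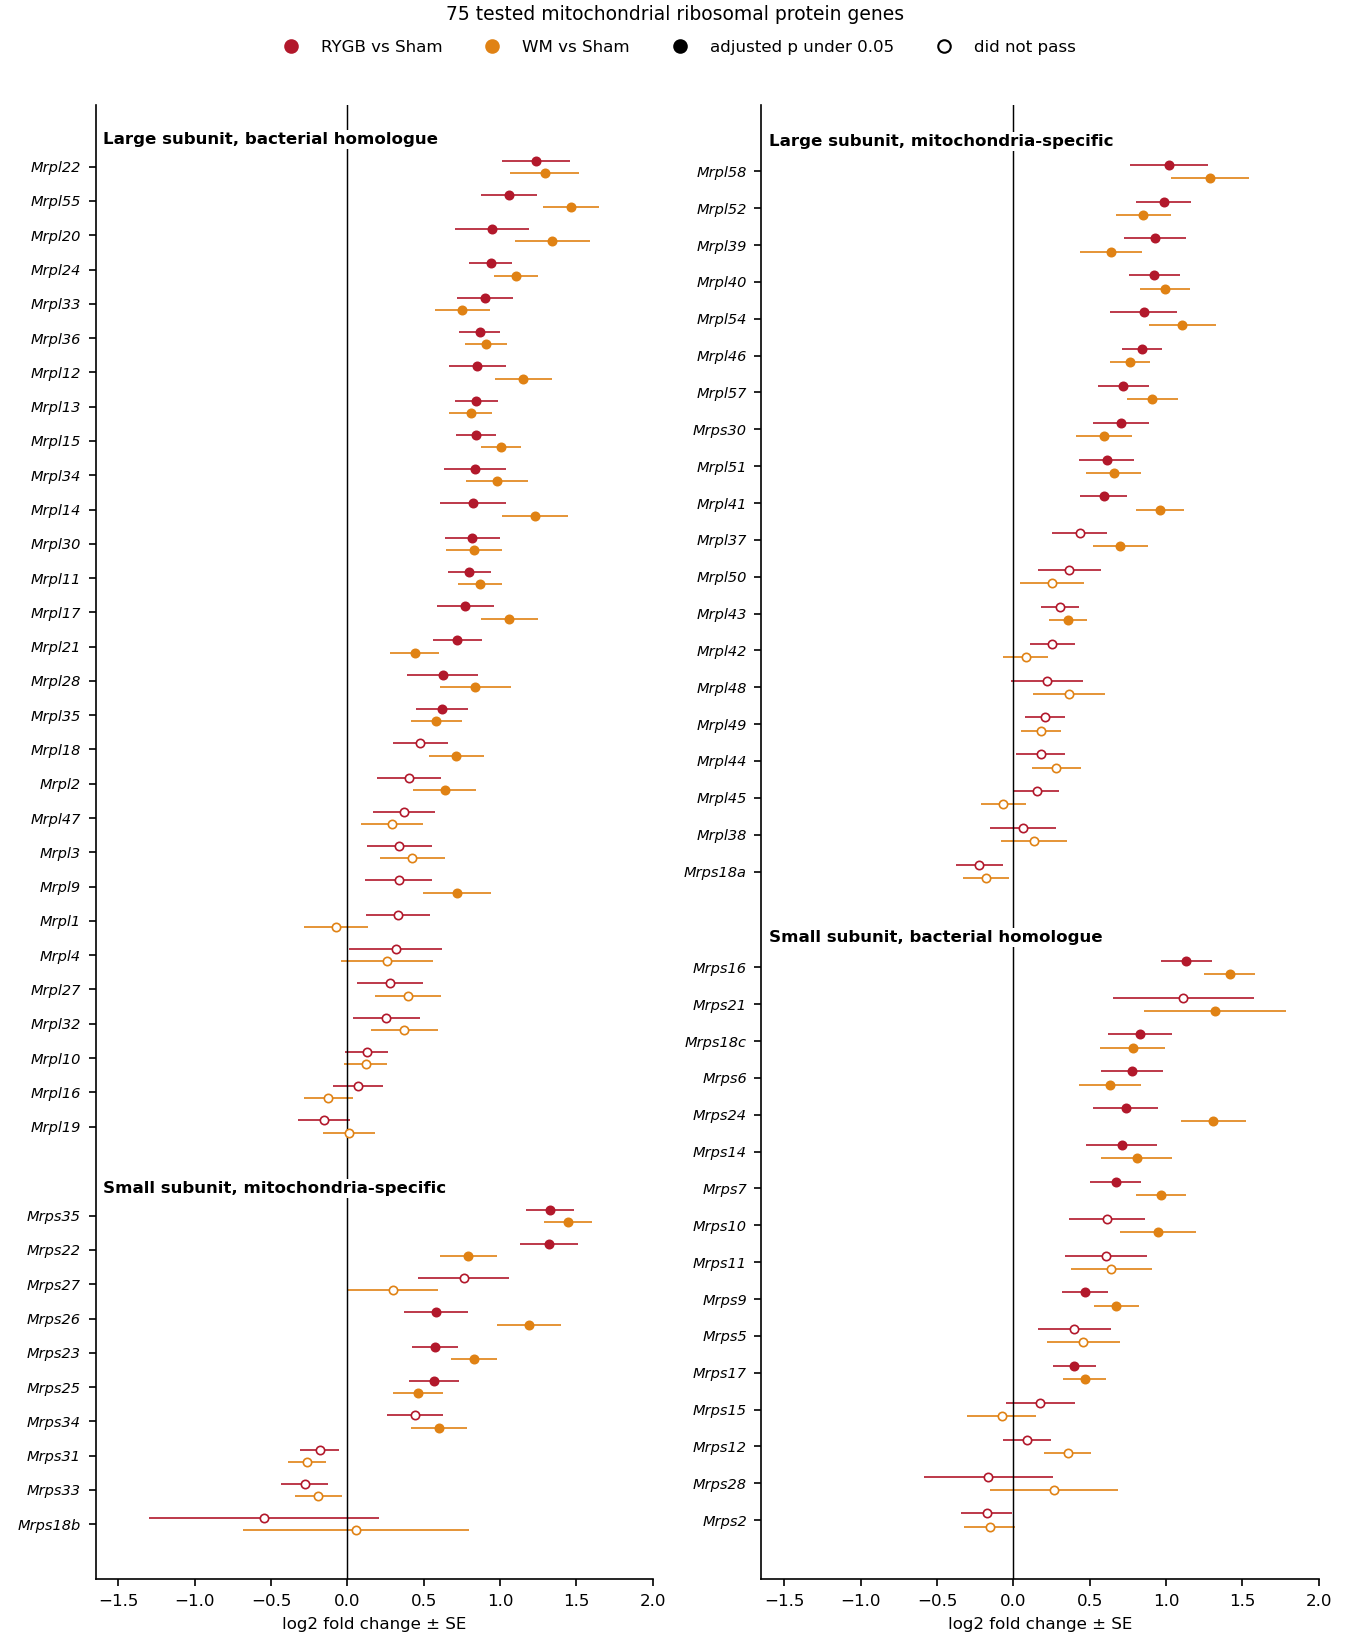
Log2 fold change with its standard error for the 75 tested genes, grouped by subunit and by the presence of a bacterial counterpart, for RYGB against Sham and WM against Sham. Filled points passed at an adjusted p under 0.05, and all of the filled points lie to the right of 0.

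The small subunit gene Mrps35 had the smallest p of the set in both comparisons. Its lowest, median and highest values were 23.6, 34.6 and 42.1 CPM in RYGB, 25.9, 35.4 and 53.0 CPM in WM, and 11.5, 12.7 and 19.0 CPM in Sham. All 16 RYGB and WM libraries were above all Sham libraries. The log2 fold change was 1.33 ± 0.16 in RYGB against Sham (2.51-fold, edgeR adjusted p = 8.83e-07) and 1.44 ± 0.16 in WM against Sham (2.72-fold, adjusted p = 1.49e-07). Mrps35 lies on chromosome 6 at 147042764 to 147073991 on the plus strand in GENCODE M21, built on GRCm38.

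Mrps22 encodes a small subunit protein found only in mitochondria. It measured 22.9, 36.4 and 59.8 CPM in RYGB, 18.5, 26.7 and 37.0 CPM in WM and 10.4, 15.9 and 19.8 CPM in Sham as lowest, median and highest library. RYGB libraries did not overlap with Sham libraries, and WM libraries did. The log2 fold change was 1.32 ± 0.19 in RYGB against Sham (adjusted p = 9.97e-06) and 0.79 ± 0.19 in WM against Sham (adjusted p = 0.00187). The WM call was lost with library totals (adjusted p = 0.0614).

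Mrps16, the counterpart of bacterial S16, measured 58.8, 71.9 and 94.0 CPM in RYGB, 71.2, 83.6 and 128 CPM in WM and 26.7, 31.1 and 55.2 CPM in Sham. The highest Sham library, Sham 2, stood apart from the other 7, and it still lay below every RYGB and WM library. The log2 fold change was 1.13 ± 0.17 in RYGB against Sham (adjusted p = 1.45e-05) and 1.42 ± 0.17 in WM against Sham (adjusted p = 4.15e-07). Mrps24, the counterpart of bacterial S3, measured 56.0, 74.95 and 118 CPM in RYGB, 73.7, 97.2 and 195 CPM in WM and 29.5, 47.9 and 62.7 CPM in Sham. RYGB overlapped with Sham and WM did not. Its log2 fold change was 0.74 ± 0.21 in RYGB against Sham (adjusted p = 0.0118) and 1.31 ± 0.21 in WM against Sham (adjusted p = 3.46e-05). The RYGB call of Mrps24 was lost with library totals and with the GC and length correction, and exons of Mrps24 overlap with Urgcp on the same strand.

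Among the large subunit genes, Mrpl55 had the largest log2 fold change in WM against Sham. It measured 17.5, 27.8 and 30.3 CPM in RYGB, 21.8, 35.3 and 50.8 CPM in WM and 8.06, 13.1 and 17.8 CPM in Sham. WM libraries were all above the Sham libraries, while the lowest RYGB library was just below the highest Sham library. The log2 fold change was 1.06 ± 0.18 in RYGB against Sham (adjusted p = 9.79e-05) and 1.46 ± 0.18 in WM against Sham (adjusted p = 8.44e-07).

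Mrpl24 and Mrpl15 are counterparts of bacterial L24 and L15. Mrpl24 measured 66.3, 92.2 and 108 CPM in RYGB, 73.0, 105 and 126 CPM in WM and 40.3, 46.7 and 57.2 CPM in Sham. Mrpl15 measured 75.02, 88.7 and 113 CPM in RYGB, 81.5, 92.7 and 133 CPM in WM and 43.1, 49.8 and 57.5 CPM in Sham. Neither gene overlapped between RYGB or WM and Sham. For Mrpl24 the log2 fold change was 0.94 ± 0.14 in RYGB (adjusted p = 1.89e-05) and 1.10 ± 0.14 in WM (adjusted p = 1.17e-06), each against Sham. For Mrpl15 it was 0.84 ± 0.13 in RYGB (adjusted p = 2.52e-05) and 1.01 ± 0.13 in WM (adjusted p = 1.29e-06). Mrpl15, with an annotated transcript of 4203 bases, gained with the GC and length correction, to 1.06 in RYGB and 1.30 in WM.

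**Figure D4:**
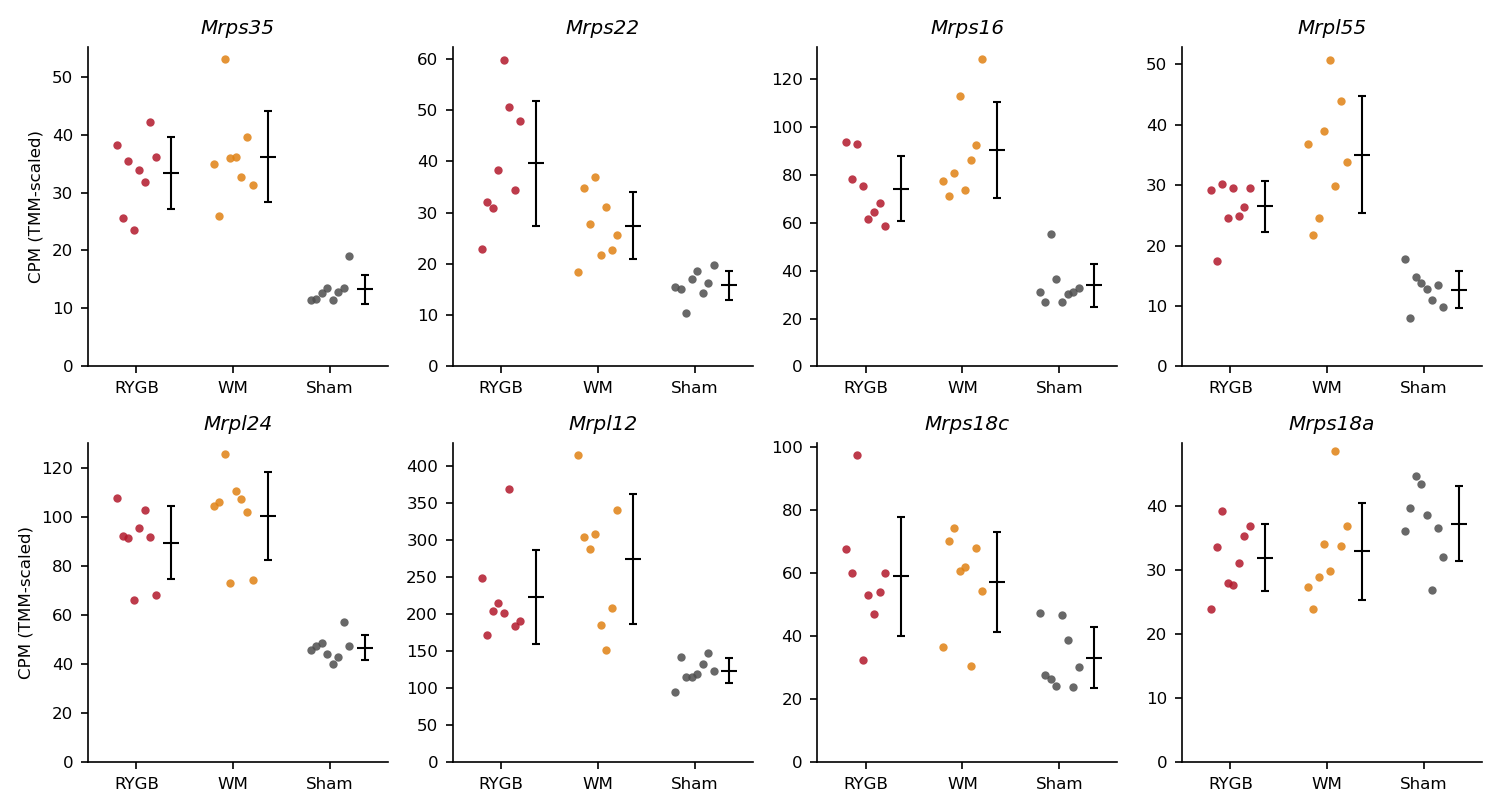
CPM after TMM scaling in each library for 8 genes of the mitochondrial ribosome, with mean and SD beside the 8 points of each group. RYGB and WM points lie above the Sham points for Mrps35, Mrps16, Mrpl24 and Mrpl12, while the groups overlap for Mrps18c and Mrps18a.

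The next 4 large subunit genes did not overlap between either group and Sham. Mrpl11, the counterpart of the L11 protein near the factor binding site of the ribosome, measured 43.5, 54.0 and 66.6 CPM in RYGB, 52.8, 55.9 and 68.8 CPM in WM and 18.0, 33.0 and 40.7 CPM in Sham. Its log2 fold change was 0.80 ± 0.14 in RYGB (adjusted p = 0.000165) and 0.87 ± 0.14 in WM (adjusted p = 4.19e-05). Mrpl13, the counterpart of L13, had 33.8 to 62.3 CPM in RYGB, 40.6 to 53.5 CPM in WM and 19.1 to 32.5 CPM in Sham, and rose by 0.84 ± 0.14 in RYGB (adjusted p = 6.12e-05) and 0.81 ± 0.14 in WM (adjusted p = 6.67e-05). Mrpl36, the counterpart of L36, whose promoter window is printed above, had 38.9 to 65.9 CPM in RYGB, 43.1 to 64.0 CPM in WM and 24.0 to 33.6 CPM in Sham, and rose by 0.87 ± 0.14 in RYGB (adjusted p = 3.42e-05) and 0.91 ± 0.14 in WM (adjusted p = 1.18e-05). Mrpl46, found only in mitochondria, had 32.9 to 48.8 CPM in RYGB, 31.1 to 47.3 CPM in WM and 18.9 to 27.4 CPM in Sham, and rose by 0.84 ± 0.13 in RYGB (adjusted p = 2.60e-05) and 0.76 ± 0.13 in WM (adjusted p = 5.91e-05). Exons of Mrpl13, Mrpl24, Mrpl36 and Mrpl46 overlap with an opposite-strand gene, which are Mtbp, Rrnad1, Ndufs6 and Mrps11, and no source used here gives the strand setting of the counting. In all, 7 members share exon bases with a gene on the same strand and 27 with one on the opposite strand.

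Mrpl12, the counterpart of the L7/L12 stalk protein that recruits translation factors, was 1 of the 5 members named for a high mean CPM. It measured 171.5, 203 and 369 CPM in RYGB, 151 to 415 CPM with a median of 296 in WM and 94.4, 121 and 147 CPM in Sham. Its log2 fold change was 0.85 ± 0.19 in RYGB (adjusted p = 0.00144) and 1.15 ± 0.19 in WM (adjusted p = 3.50e-05). The other 4, all counterparts of bacterial proteins, were Mrpl14, Mrpl34, Mrpl20 and Mrpl17. Mrpl14 averaged 196.5 ± 68.3 CPM in RYGB, 260 ± 104 CPM in WM and 111 ± 10.7 CPM in Sham, and Mrpl20 averaged 134 ± 58.5, 176 ± 78.6 and 69.4 ± 12.5 CPM in the same order (SD, n = 8 each). Mrpl34 averaged 178 ± 27.5 CPM in RYGB, 197 ± 56.3 CPM in WM and 99.8 ± 34.4 CPM in Sham. Mrpl17 averaged 109.6 ± 18.5 CPM in RYGB, 134 ± 34.4 CPM in WM and 64.2 ± 17.3 CPM in Sham. All 4 passed in both comparisons, with folds of 1.71 for Mrpl17, 1.77 for Mrpl14, 1.78 for Mrpl34 and 1.93 for Mrpl20 in RYGB, and of 2.09, 2.34, 1.97 and 2.54 for the same genes in WM. RYGB libraries lay above all Sham libraries for Mrpl12, Mrpl14 and Mrpl20, and WM libraries for Mrpl12 alone of these 5. After the GC and length correction Mrpl14 passed in neither comparison (adjusted p = 0.333 in RYGB and 0.0664 in WM), Mrpl20 did not pass in RYGB (adjusted p = 0.170) and Mrpl34 did not pass in WM (adjusted p = 0.0567). With library totals the RYGB calls of Mrpl14 (adjusted p = 0.101) and Mrpl20 (adjusted p = 0.0628) were lost as well. Mrpl41, found only in mitochondria, averaged 26.6 ± 5.96 CPM in RYGB, 34.4 ± 6.63 CPM in WM and 17.6 ± 2.06 CPM in Sham. It rose by 0.59 ± 0.15 in RYGB (adjusted p = 0.00562) and 0.96 ± 0.15 in WM (adjusted p = 2.82e-05), and the RYGB call was lost with library totals and with the GC and length correction.

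3 members are paralogues related to bacterial S18. In the classes above, Mrps18c is counted as having a bacterial counterpart, and Mrps18a and Mrps18b with the proteins found only in mitochondria. Mrps18c measured 32.4, 56.9 and 97.5 CPM in RYGB, 30.6, 61.2 and 74.4 CPM in WM and 23.9, 29.0 and 47.2 CPM in Sham, with a log2 fold change of 0.83 ± 0.21 in RYGB (adjusted p = 0.00500) and 0.78 ± 0.21 in WM (adjusted p = 0.00574). Both calls were lost with library totals and with the GC and length correction. Mrps18a measured 23.9, 32.4 and 39.2 CPM in RYGB, 24.0, 31.8 and 48.6 CPM in WM and 26.9, 37.6 and 44.8 CPM in Sham. Its groups overlapped, and its log2 fold change did not pass at -0.22 ± 0.15 in RYGB (adjusted p = 0.303) and -0.18 ± 0.15 in WM (adjusted p = 0.386). With the GC and length correction Mrps18a passed as lower, at -0.65 in RYGB (adjusted p = 0.00550) and -0.73 in WM (adjusted p = 0.00162), and it also passed as lower with library totals. Mrps18b had 0 to 1.38 CPM in RYGB, 0 to 1.62 CPM in WM and 0 to 1.17 CPM in Sham, and a difference was not detectable at this depth. The test of the difference between paralogues was not made.

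Passing in WM against Sham but not in RYGB against Sham were Mrpl2, Mrpl9, Mrpl18, Mrpl37, Mrpl43, Mrps10, Mrps21 and Mrps34, with log2 fold changes of 0.31 to 1.11 in RYGB. Passing in neither comparison were 27 members. They were Mrpl1, Mrpl3, Mrpl4, Mrpl10, Mrpl16, Mrpl19, Mrpl27, Mrpl32, Mrpl38, Mrpl42, Mrpl44, Mrpl45, Mrpl47, Mrpl48, Mrpl49 and Mrpl50 of the large subunit, Mrps18a, and Mrps2, Mrps5, Mrps11, Mrps12, Mrps15, Mrps18b, Mrps27, Mrps28, Mrps31 and Mrps33 of the small subunit. Mrps33, singled out here for its sign after its values were seen, measured 9.32, 12.0 and 15.9 CPM in RYGB, 10.9, 13.0 and 15.3 CPM in WM and 11.3, 14.6 and 18.9 CPM in Sham. Its log2 fold change was -0.28 ± 0.15 in RYGB (adjusted p = 0.195) and -0.19 ± 0.15 in WM (adjusted p = 0.362), and the groups overlapped. Mrps31, also named after its values were seen, had medians of 31.4 CPM in RYGB, 28.8 CPM in WM and 35.7 CPM in Sham. Every RYGB and WM library lay below that Sham median, though the groups overlapped. The log2 fold change of Mrps31 was -0.18 ± 0.13 in RYGB (adjusted p = 0.31) and -0.27 ± 0.13 in WM (adjusted p = 0.109). In WM it was the only member lower at an unadjusted edgeR p under 0.05. Mrps11 and Mrpl46 overlap on opposite strands, and Mrps11 had a log2 fold change of 0.61 ± 0.27 in RYGB (adjusted p = 0.0985) and 0.64 ± 0.27 in WM (adjusted p = 0.0665).

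Among tested members with a promoter window, the ETS core was found in 14 of 36 that rose in RYGB and in 11 of 30 that did not pass. The NRF1 half-site was found in 13 of 36 and in 7 of 30, and the YY1 core in 3 of 36 and in 5 of 30. In WM the ETS core was found in 17 of 43 that rose and in 8 of 23 that did not pass, the NRF1 half-site in 14 of 43 and 6 of 23, and the YY1 core in 4 of 43 and 4 of 23. These counts are given with no test.

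Between gastric bypass and calorie restriction at matched weight, no member passed. In RYGB against WM, 0 of 75 were higher and 0 lower by edgeR and by limma-voom, and 0 of 77 by DESeq2, which was run on all members, where 1.06% of all tested genes were higher and 0.434% lower by edgeR. For 0 members did the libraries of the 2 groups not overlap, where 0.282% of all tested genes lay wholly above and 0.0762% wholly below. The median log2 fold change was -0.08, against -0.02 for all genes, with a range of -0.61 to 0.53. At an unadjusted p under 0.05, 1 member was higher and 4 were lower of 75, against 741 higher and 715 lower of all 13121 genes, so the members did not exceed the general share. The higher one was Mrps22, at 0.53 ± 0.19 (adjusted p = 0.201). The lower ones were Mrps26, at -0.61 ± 0.21 (adjusted p = 0.188), Mrps24, at -0.58 ± 0.21 (adjusted p = 0.237), Mrpl55, at -0.40 ± 0.18 (adjusted p = 0.373), and Mrpl41, at -0.37 ± 0.15 (adjusted p = 0.323). Mrps26 is named here because of this count.

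The 5 ribosome subunits with other symbols gave 4 higher and 1 lower in each comparison with Sham, and their median log2 fold change was 0.90 in RYGB and 1.20 in WM. Among all tested genes, 12.7% were higher and 11.0% lower in RYGB, and 16.5% were higher and 15.0% lower in WM. Aurkaip1 averaged 96.7 ± 14.8 CPM in RYGB, 119.5 ± 30.0 CPM in WM and 51.9 ± 11.7 CPM in Sham, with log2 fold changes of 0.90 ± 0.17 (adjusted p = 0.000336) in RYGB and 1.20 ± 0.17 (adjusted p = 6.24e-06) in WM. Chchd1 rose by 1.25 ± 0.27 in RYGB (adjusted p = 0.00128) and 1.24 ± 0.27 in WM (adjusted p = 0.000940). Gadd45gip1, a large subunit protein also known as CRIF1, rose by 1.09 ± 0.27 in RYGB (adjusted p = 0.00336) and 1.20 ± 0.27 in WM (adjusted p = 0.000984), and Dap3, a small subunit protein that binds GTP, rose by 0.73 ± 0.17 in RYGB (adjusted p = 0.00227) and 0.59 ± 0.17 in WM (adjusted p = 0.00938). Ptcd3, a pentatricopeptide protein of the small subunit, fell by 0.57 in RYGB (adjusted p = 0.0225) and by 0.65 in WM (adjusted p = 0.00728) on the log2 scale, and neither call held after the GC and length correction. The WM call of Dap3 was lost with library totals (adjusted p = 0.224).

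Of 26 tested factors that assemble the ribosome, 5 were higher and 0 lower in RYGB, and 11 were higher and 1 lower in WM, with medians of 0.43 and 0.58 against Sham. Over all tested genes, 12.7% were higher and 11.0% lower in RYGB, and 16.5% were higher and 15.0% lower in WM. Ngrn, which is needed for the large ribosomal RNA, averaged 19.7 ± 4.48 CPM in RYGB, 21.9 ± 4.17 CPM in WM and 9.84 ± 2.44 CPM in Sham, with log2 fold changes of 1.00 ± 0.18 (adjusted p = 0.000129) in RYGB and 1.15 ± 0.18 (adjusted p = 1.37e-05) in WM. Fastkd2, an RNA-binding protein of mitochondrial RNA granules, rose by 1.07 ± 0.21 in RYGB (adjusted p = 0.000375) and 1.05 ± 0.21 in WM (adjusted p = 0.000325). Malsu1, which holds the large subunit back from joining too early, rose by 0.81 ± 0.16 in RYGB (adjusted p = 0.000486) and 0.90 ± 0.16 in WM (adjusted p = 0.000102), and the GTPase Mtg1 by 0.61 ± 0.17 in RYGB (adjusted p = 0.00776) and 0.91 ± 0.17 in WM (adjusted p = 0.000127). The RYGB call of Mtg1 was lost with library totals and with the GC and length correction (adjusted p from 0.0654 to 0.316). The assembly factor lower in WM was the GTPase Gtpbp10, named after its values were seen, which fell by 1.05 on the log2 scale (adjusted p = 0.0301).

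The difference between the lists described here was not tested. The shares called among translation factors and tRNA synthetases were near those of all tested genes, of which 12.7% were higher in RYGB and 16.5% in WM. Of 18 translation factors and RNA partners, 3 were higher and 0 lower in RYGB and 2 were higher and 1 lower in WM, with medians of 0.08 and 0.02. Slirp, which binds mitochondrial messages together with Lrpprc, rose by 1.11 ± 0.20 in RYGB (adjusted p = 0.000172) and 0.84 ± 0.20 in WM (adjusted p = 0.00189). Lrpprc rose by 1.18 ± 0.34 in RYGB (adjusted p = 0.0125) and had 0.83 ± 0.34 in WM (adjusted p = 0.0646), and Mtfmt, which formylates the initiator tRNA, rose by 0.91 ± 0.22 in RYGB (adjusted p = 0.00301) and 0.59 ± 0.22 in WM (adjusted p = 0.0410). The elongation factor Gfm1 fell by 0.61 in WM (adjusted p = 0.00524) and had -0.15 ± 0.16 in RYGB (adjusted p = 0.535). With library totals the RYGB calls of Lrpprc (adjusted p = 0.0596) and Mtfmt (adjusted p = 0.101) were lost and Gfm1 passed as lower in RYGB (adjusted p = 0.04), and with the GC and length correction the WM call of Gfm1 was lost (adjusted p = 0.0768). The WM call of Mtfmt was lost in 3 alternatives and without any 1 of WM 9, WM 13, WM 27, Sham 3, Sham 5, Sham 6, Sham 16 or Sham 17 (adjusted p from 0.0666 to 0.108). Lrpprc in WM passed in 4 alternatives and without any 1 of WM 1, WM 7, WM 20, WM 27 or Sham 23 (adjusted p from 0.0357 to 0.0455). Of 17 tRNA synthetases, 3 were higher and 0 lower in RYGB and 2 were higher and 0 lower in WM, with medians of 0.22 and 0.12. Hars2 rose by 0.65 ± 0.16 in RYGB (adjusted p = 0.0029) and in WM (adjusted p = 0.00212), Fars2 by 0.62 ± 0.19 in RYGB (adjusted p = 0.014) and 0.95 ± 0.19 in WM (adjusted p = 0.000272), and Tars2 by 0.65 ± 0.23 in RYGB (adjusted p = 0.0343), with 0.42 ± 0.23 in WM (adjusted p = 0.157). With library totals the calls of Hars2 in RYGB (adjusted p = 0.202) and WM (adjusted p = 0.149), of Fars2 in RYGB and of Tars2 in RYGB were lost, and Fars2 (adjusted p from 0.135 to 0.169) and Tars2 (adjusted p from 0.192 to 0.229) were lost in RYGB also without the 3 libraries with pancreas transcripts. The Tars2 call was lost without any 1 of RYGB 18, RYGB 19, RYGB 29, Sham 2, Sham 5, Sham 14 or Sham 17 (adjusted p from 0.0502 to 0.0736).

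Mitochondrial DNA encodes the messages that the ribosome translates. Of 8 such mRNAs tested, 0 were higher and 1 lower in RYGB, and 1 was higher and 1 lower in WM. Among all tested genes, 12.7% were higher and 11.0% lower in RYGB, and 16.5% were higher and 15.0% lower in WM. The numbers called were therefore not above the general share. Their sum was 25020 to 95060 CPM in RYGB, 24330 to 54090 CPM in WM and 21470 to 77830 CPM in Sham, and the groups overlapped. The complex I message mt-Nd3 fell by 1.16 on the log2 scale in RYGB (adjusted p = 0.0382), the complex IV message mt-Co1 rose by 0.78 ± 0.19 in WM (adjusted p = 0.00266) and mt-Nd2 fell by 0.93 in WM (adjusted p = 0.0205). The mt-Nd3 call was lost in 2 alternatives and without any 1 of RYGB 18, RYGB 19, RYGB 22, RYGB 29, Sham 3, Sham 14 or Sham 16 (adjusted p from 0.0549 to 0.136). The mt-Nd2 call was lost in 2 alternatives (adjusted p from 0.0679 to 0.3) and without Sham 23 (adjusted p = 0.0563), and mt-Nd2 passed as lower in RYGB with library totals (adjusted p = 0.0304). The mt-Co1 call was lost with library totals (adjusted p = 0.0794). The large ribosomal RNA mt-Rnr2 measured 17040, 24930 and 50950 CPM in RYGB, 17330, 41620 and 75510 CPM in WM and 16270, 23570 and 43730 CPM in Sham. It rose in WM, by 0.88 ± 0.28 (adjusted p = 0.0159), and had 0.15 ± 0.27 in RYGB (adjusted p = 0.731), while RYGB against WM did not pass (adjusted p = 0.262). The WM call of mt-Rnr2 was lost with library totals and with limma-trend (adjusted p from 0.0511 to 0.0989). The small ribosomal RNA mt-Rnr1 passed in neither, at 0.03 ± 0.28 in RYGB (adjusted p = 0.958) and 0.64 ± 0.28 in WM (adjusted p = 0.0782), though it passed in WM with the GC and length correction (adjusted p = 0.0245). RNAs of mitochondrial DNA carry at most short A tails, so a library primed on poly(A) may not count them in proportion.

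Of 8 genes for transcription and replication of mitochondrial DNA, 1 was higher in RYGB and 2 in WM, with 0 lower. Over all tested genes, 12.7% were higher and 11.0% lower in RYGB, and 16.5% were higher and 15.0% lower in WM. Polg2, the accessory subunit of the DNA polymerase, rose by 0.89 ± 0.23 in RYGB (adjusted p = 0.00561) and 1.13 ± 0.23 in WM (adjusted p = 0.000436), and the elongation factor Tefm rose by 0.93 ± 0.34 in WM (adjusted p = 0.0358), with 0.86 ± 0.34 in RYGB (adjusted p = 0.0643). The Tefm call in WM was lost in 4 alternatives (adjusted p from 0.0543 to 0.174) and without any 1 of WM 1, WM 20, WM 27, Sham 5, Sham 14, Sham 16, Sham 17 or Sham 23 (adjusted p from 0.0512 to 0.0787). Tefm passed in RYGB in 4 alternatives and without any 1 of RYGB 19, WM 25 or Sham 2 (adjusted p from 0.0119 to 0.049), and the Polg2 call in RYGB was lost with library totals (adjusted p = 0.0806). Of 9 regulators of mitochondrial genes, 1 was higher and 0 lower in RYGB, and 1 was higher and 1 lower in WM. The shares over all tested genes are those given above. Esrra, a nuclear receptor that drives genes of oxidative metabolism, averaged 11.5 ± 3.73 CPM in RYGB, 17.4 ± 7.63 CPM in WM and 6.81 ± 0.893 CPM in Sham, and rose by 0.75 ± 0.23 in RYGB (adjusted p = 0.0155) and 1.35 ± 0.23 in WM (adjusted p = 5.17e-05), and the RYGB call was lost with library totals (adjusted p = 0.177). The coactivator Ppargc1a averaged 13.1 ± 2.82 CPM in RYGB, 7.66 ± 2.74 CPM in WM and 15.5 ± 3.75 CPM in Sham. It fell by 1.01 in WM against Sham (adjusted p = 0.000422) and had -0.24 ± 0.20 in RYGB against Sham (adjusted p = 0.406), and RYGB against WM was 0.77 ± 0.21 (adjusted p = 0.0522). Ppargc1a passed as higher in RYGB against WM with DESeq2, with limma-trend and with the GC and length correction (adjusted p from 0.0065 to 0.0358), and without any 1 of RYGB 29, WM 7, WM 9, WM 27 or Sham 17 (adjusted p from 0.0243 to 0.0441). The messages of the factors whose motifs were searched had log2 fold changes of -0.40 ± 0.25 in RYGB and -0.14 ± 0.25 in WM for Gabpa, -0.26 ± 0.16 and 0.01 ± 0.16 for Nrf1, and 0.03 ± 0.17 and 0.10 ± 0.17 for Yy1, and none passed.

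**Figure D5:**
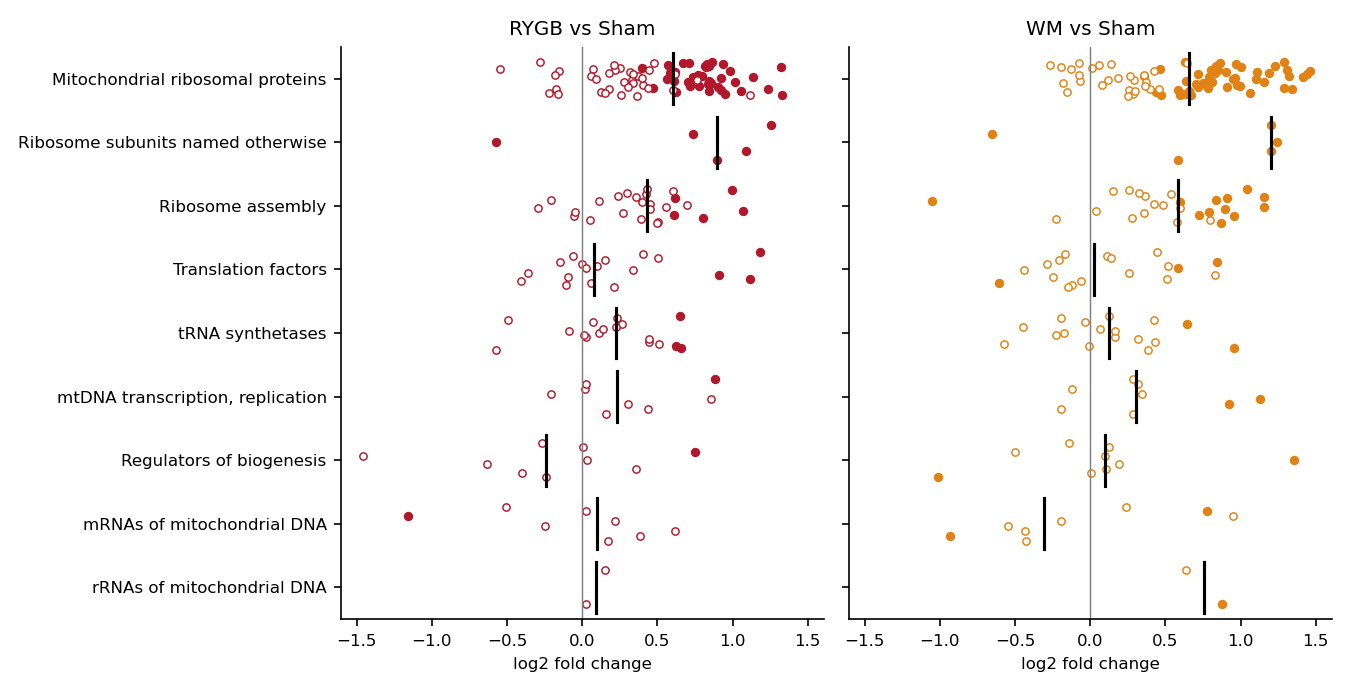
Log2 fold change of each tested gene in 9 lists around mitochondrial translation, for RYGB against Sham and WM against Sham, with filled points for genes that passed and a bar at the median of each list. The bar of the mitochondrial ribosomal proteins is at 0.61 in RYGB and 0.66 in WM, and that of the mRNAs of mitochondrial DNA is at 0.10 and -0.31.

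Genes of the cytosolic ribosome and of the respiratory chain were higher as well, where 12.7% of all tested genes were higher in RYGB and 16.5% in WM. Of 84 tested cytosolic ribosomal protein genes, 77 were higher in RYGB and 78 in WM, with medians of 1.43 and 1.52 against Sham and with 1.05 and 1.13 after the GC and length correction. Of 80 tested nuclear-encoded genes of the respiratory chain, 56 were higher in RYGB and 63 in WM, with medians of 0.75 and 0.88, and with 0.47 and 0.49 after the correction. The median of the members was 0.39 and 0.42 after the same correction.

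Markers of liver cells also moved, and their part in the result was not tested. The shares over all tested genes were 12.7% higher and 11.0% lower in RYGB, and 16.5% higher and 15.0% lower in WM. In a bulk sample, fewer cells of a type and less RNA per cell cannot be told apart. Of 8 hepatocyte markers, 4 were higher and 1 lower in RYGB, and 5 were higher and 1 lower in WM. Their sum was 83260 to 140900 CPM in RYGB, 79900 to 135400 CPM in WM and 35060 to 82520 CPM in Sham. Alb rose by 1.28 ± 0.19 in RYGB (adjusted p = 1.6e-05) and Serpina1a by 1.39 ± 0.25, and Apob fell by 1.23 on the log2 scale in RYGB and by 1.28 in WM, with both calls of Apob lost after the GC and length correction (adjusted p = 0.0792 in RYGB and 0.13 in WM). The WM call of Alb was lost with library totals and with limma-trend (adjusted p from 0.0642 to 0.183), and Ttr passed in RYGB in 3 alternatives (adjusted p from 0.0047 to 0.039). Of 6 Kupffer cell markers, 6 were higher in RYGB and 5 in WM, with sums of 151 to 684.5 CPM in RYGB, 166 to 499 CPM in WM and 60.3 to 242 CPM in Sham. Timd4 rose by 2.77 ± 0.47 in RYGB and 2.22 ± 0.47 in WM, Clec4f by 1.12 ± 0.25 and 1.11 ± 0.25, and Vsig4 averaged 45.4 ± 21.1 CPM in RYGB, 41.1 ± 9.09 CPM in WM and 17.9 ± 14.6 CPM in Sham, with its WM call lost with library totals (adjusted p = 0.0618). Of 5 stellate cell markers, 3 were lower in RYGB and 4 in WM, with sums of 246 to 347 CPM in RYGB, 195 to 339 CPM in WM and 345 to 739 CPM in Sham. Col1a1 averaged 3.18 ± 1.57 CPM in RYGB, 2.67 ± 1.89 CPM in WM and 39.5 ± 15.7 CPM in Sham. The calls of the stellate marker Lrat were lost with the GC and length correction in both comparisons with Sham (adjusted p = 0.122 in WM). In RYGB the Lrat call was also lost without the 3 libraries with pancreas transcripts (adjusted p from 0.0677 to 0.0984). Dcn passed in RYGB in 6 alternatives (adjusted p from 0.00197 to 0.0453).

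Of 5 endothelial markers, 2 were higher in RYGB and 3 in WM, with sums of 71.0 to 165 CPM in RYGB, 128 to 215.5 CPM in WM and 30.9 to 158 CPM in Sham. With library totals the calls of Kdr in RYGB (adjusted p = 0.146) and of Stab2 in WM (adjusted p = 0.0792) were lost. Stab2 passed in RYGB with limma-voom and with the GC and length correction (adjusted p from 0.0131 to 0.0172). Of 5 erythrocyte markers, 2 were higher in RYGB and 5 in WM, with sums of 2806 to 5662 CPM in RYGB, 1407 to 9955 CPM in WM and 748 to 2410 CPM in Sham. Of 4 cholangiocyte markers, 0 passed in RYGB and Sox9 was lower in WM, with sums of 17.5 to 41.1 CPM in RYGB, 10.0 to 26.4 CPM in WM and 17.8 to 35.96 CPM in Sham. Lymphocyte markers summed to 1.54 to 8.44 CPM in RYGB, 1.17 to 11.7 CPM in WM and 1.68 to 4.30 CPM in Sham, and these ranges overlapped. Of the single markers, Cd3d was higher in both comparisons with Sham, at a level of a few CPM. In RYGB it had 5.38 CPM in RYGB 11 and 0.253 to 2.16 CPM in the other libraries. Adipocyte markers summed to 0.629 to 70.5 CPM in RYGB, 0.0692 to 19.5 CPM in WM and 3.10 to 15.9 CPM in Sham. The adipocyte gene Cfd was higher in RYGB than in Sham (adjusted p = 0.0295) and than in WM (adjusted p = 0.023). The first call was lost in 5 alternatives (adjusted p from 0.0521 to 0.388) and without any 1 of RYGB 10, RYGB 28, Sham 5 or Sham 16 (adjusted p from 0.0528 to 0.067), and the second in 3 alternatives (adjusted p from 0.0765 to 0.373) and without RYGB 10 (adjusted p = 0.0612). The acinar gene Cela1, the only one of the acinar list that was tested, was higher in both comparisons with Sham, and its RYGB call was lost after the GC and length correction (adjusted p = 0.0555).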

How the data were processed

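Liver RNA of 24 mouse samples was measured with a 3′ mRNA library kit and 50 bp forward reads, per the labels' protocols. The authors deposited a table of raw counts (whole reads per Ensembl gene) and a table of normalized signal. That signal equalled raw counts over median-of-ratios size factors, recomputed here, with a largest relative deviation of 6.67e-15. R 4.1.2 and DESeq2 1.34 are named in the submitters' processing notes. No source used here gives the aligner, counting program, build or strand setting. Libraries held 13659647 to 22766612 counts.

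Raw counts were tested in R 4.3.3 with edgeR 4.0.16 (filterByExpr, TMM, quasi-likelihood F-test, 24 libraries, no covariate, common biological coefficient of variation 0.398). P-values were adjusted by Benjamini-Hochberg over 13121 genes. SE is the standard error of a log2 fold change. The procedure was checked on simulated data. Alternatives used RLE scaling, library totals, DESeq2 1.42.0, limma 3.58.1 (voom with quality weights, and trend on log2 of the deposited signal plus 1), other low-count filters, the compared groups alone, GC and length offsets (mgcv 1.9.3), Gm42418 share as a covariate, no acinar libraries, and each library left out. Genes were matched to GENCODE M21 (GRCm38) by Ensembl ID, which holds all 77 members. The deposited starts equal those of GENCODE M21 for 326 of 13343 genes compared and were not used. Transcript length and GC content are those of the longest principal transcript of a gene. Where a gene has none, the longest protein-coding transcript was used, and otherwise the longest of any type.

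Members and the 17 gene lists, which come from textbook knowledge, were chosen with earlier results of these data known. 11 list genes were not analysed here. Named with values were, in each comparison, the 10 called members in each direction with the smallest p, called members against the majority, the 5 members with the highest mean CPM, the S18 paralogues, and the 3 called genes with the smallest p from each other list.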

Additional observations from a re-analysis of the deposited data

Results flagged for a closer look

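In a group of 8, a library was set aside for a closer look when its gap to the nearest other library exceeded Dixon's 95% critical value as a share of the group's range. This was looked for in 201 combinations of named gene and group and found in 20, and chance gives about 1 in 20.

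3 members were high in RYGB 11. Mrpl12 had 369 CPM there against 171.5 to 249 in the other 7 RYGB libraries, Mrpl14 had 356 CPM against 145 to 211, and Mrpl20 had 273 CPM against 98.3 to 142.5. In the same library, Cd3d had 5.38 CPM and Col3a1 had 29.5 CPM. Gm42418 took 20.35% of the counts of RYGB 11, the highest share in its group, and RYGB 11 had the fewest genes with a count of its group. Mrpl55 was low in RYGB 22, with 17.5 CPM against 24.6 to 30.3, and Timd4 was high there with 23.2 CPM. Sox9 had 39.1 CPM in RYGB 18.

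In Sham 2, Mrps16 had 55.2 CPM against 26.7 to 36.4 in the other 7 Sham libraries, and Mrps35 had 19.0 CPM against 11.50 to 13.6. The same library was high for Chchd1 at 143.5 CPM, Col3a1 at 165 CPM and Vsig4 at 53.6 CPM. Cela1 had 119 CPM in Sham 17, one of the libraries with pancreas transcripts. Lrpprc had 138 CPM in Sham 23, Malsu1 had 35.1 CPM in Sham 6 and mt-Rnr2 had 43730 CPM in Sham 14.

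WM 25 was high for Dap3 at 74.7 CPM, for Tars2 at 18.3 CPM and for Ttr at 37270 CPM. No call of the 20 members named by the rule was lost when any single library was left out. Most of these were named for a small p in the same data, so this says little about members nearer the threshold. Among all tested members, the number higher fell to as few as 37 in RYGB and 44 in WM.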

How the results depend on the processing

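No paired analysis was possible because the groups share no replicate numbers in the labels. The count of higher members in RYGB against Sham moved to 20 with library totals, and was 33 to 49 in the other 10 alternatives. In WM against Sham it moved to 26 with library totals, and was 38 to 51 in the others. Lower members, 0 in the fit as reported, were 5 in RYGB and 4 in WM with library totals, 2 and 3 with the GC and length correction, and 1 in RYGB (Mrps33) with limma-voom. With library totals the lower ones were Mrpl19, Mrps2, Mrps18a, Mrps31 and Mrps33 in RYGB and Mrpl16, Mrps18a, Mrps31 and Mrps33 in WM. With the correction they were Mrps18a and Mrps33 in RYGB and Mrpl42, Mrps15 and Mrps18a in WM. The median log2 fold change moved to 0.26 in RYGB and 0.35 in WM with library totals, and to 0.39 and 0.42 with the GC and length correction. The cause was not tested. RYGB against WM had 0 calls in all 11 alternatives. With each library left out, higher members were 37 to 46 in RYGB and 44 to 49 in WM, lower members stayed at 0, and medians were 0.54 to 0.70 in RYGB, 0.63 to 0.71 in WM and -0.15 to -0.06 in RYGB against WM. Differences of members under about 1 CPM, such as Mrps18b, were beyond the depth.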
